A study of Mus musculus with 4 samples.

Results

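The 10 genes described here encode lymphotoxin, tumour necrosis factor (TNF) and the related signals that organise lymphoid tissue: Lta, Ltb, Tnf, Tnfsf14, Tnfsf11, Tnfsf13b, Ltbr, Tnfrsf1a, Tnfrsf11a and Il7. They were chosen by name, and all array probes whose transcript accession belongs to them were taken, which gave 13 of the 41174 probes on the array. Expression was measured in 2 nodes, the gastric (left pancreatic) and the pancreatico-duodenal (right pancreatic) lymph node, of 4 female NOD mice aged 12 weeks; NOD mice develop autoimmune diabetes without any treatment. RNA of the gastric node carried the red dye Cy5 and RNA of the pancreatico-duodenal node the green dye Cy3 on 1 two-colour Agilent array per mouse. Log2 ratios are given as gastric over pancreatico-duodenal node throughout, and values below 0 therefore mark genes that were lower in the gastric node. No array carried the dyes the other way round, and dye and node effects cannot be told apart.

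Lymphotoxin alpha and beta, the products of Lta and Ltb, form a membrane trimer on lymphocytes and lymphoid tissue inducer cells. The trimer engages the lymphotoxin beta receptor, encoded by Ltbr, on stromal, endothelial and myeloid cells, and this signal is needed for lymph nodes to form and for their chemokines and high endothelial venules to be kept up. The receptor acts through the kinase NIK and the NF-κB proteins p52 and RelB, whereas TNF acts through its receptor TNFR1 mainly on RelA. RANK ligand, BAFF and interleukin 7 act beside them in the formation of the node and in the survival of its lymphocytes.

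Markers of lymph node lymphocytes were measured in both nodes. All 10 T cell and all 8 B cell genes of the lists were well above background in both channels of all 4 arrays. Spots well above background made up 67.6% to 71.8% of the gastric node channels and 60.2% to 63.1% of the pancreatico-duodenal ones, with 0 spots saturated. Precision was limited by the 4 arrays. Markers of tissues that lie around the node differed between the mice, and the source of their RNA was not tested. Mouse 3 had a median log2 ratio of -5.20 over 10 exocrine pancreas genes, and mice 1, 2 and 4 had -0.28, 0.22 and 0.85. That of 5 adipocyte genes was 2.38, -2.12, 0.69 and -1.70 in mice 1 to 4. Values without mouse 3 are given for Ltbr, Tnfsf13b and Il7.

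Ltbr was the gene of the 10 whose level differed at the threshold, and it was lower in the gastric node. Its normalised log2 intensity was 9.86, 9.87, 9.86 and 9.72 in the gastric nodes of mice 1 to 4, against 10.14, 10.04, 10.36 and 10.17 in the pancreatico-duodenal nodes of the same mice. Every gastric node lay below every pancreatico-duodenal node, so the groups did not overlap. The share of all features that separate in this way was not counted. The dimmer probe of Tnfrsf11a separated too, at 6.87 to 6.94 against 6.99 to 7.11, and was not called. The log2 ratios were -0.28, -0.17, -0.50 and -0.44, a mean of -0.35 ± 0.15 (SD, n = 4). This is 1.27-fold lower in the gastric node (95% interval of the log2 ratio -0.52 to -0.18; limma adjusted p = 0.0447 over all features). With every probe tested on its own its adjusted p was 0.0425, where 4.91% of 27602 probes were called lower. In the whole comparison 949 of 21319 genes and unnamed transcripts, or 4.45%, were called lower, and 7.54% were called in either direction. The call for 1 of 10 genes is thus near the share of all features. In RNA from a whole node, fewer cells that express a gene and less of its RNA in each cell cannot be told apart.

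**Figure D1:**
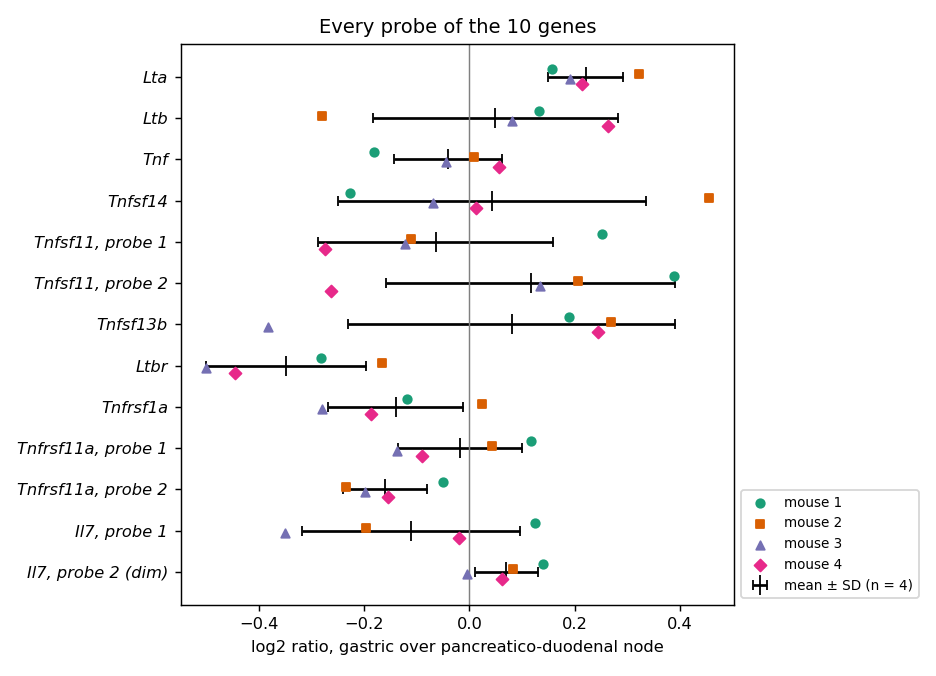
Log2 ratio (gastric over pancreatico-duodenal node, horizontal axis) of all 13 probes of the 10 genes, with a symbol per mouse and the mean ± SD over 4 mice in black. Ltbr lies below 0 and Lta above 0 in all 4 mice, and the other genes' brightest probes have mice on both sides of 0.

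The Ltbr call lay close to the threshold. It was lost without mouse 2 (limma adjusted p = 0.136, log2 ratio -0.41), without mouse 3 (adjusted p = 0.109, -0.30) and without mouse 4 (adjusted p = 0.187, -0.32), but without these mice 0, 3 and 1 features of the whole array passed. Nor was it made with the processed signals of the scanner software (adjusted p = 0.0590, log2 ratio -0.40). With each array only centred on its median, in place of the loess fit that removes a trend with brightness, the ratio was 0.15, while the median of all features moved to 0.32. Relative to that median Ltbr was at -0.18. That median takes no account of brightness. In the loess fit Ltbr was at -0.38 relative to the median of features within 0.25 log2 units of its brightness.

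Markers of several cell types that carry the receptor were in part lower in the gastric node as well. Of all features 4.45% were called lower, which is the share to set beside the counts of lower genes that follow. Of 10 fibroblastic stroma genes 4 were lower and none was higher, with 6 at an unadjusted p under 0.05, which 30.7% of all features had. The 4 were the matrix genes Col1a1, Col1a2, Col3a1 and Bgn, while the growth factor receptor genes Pdgfra and Pdgfrb were at 0.12 ± 0.22 and 0.079 ± 0.30 and the actin gene Acta2 at -0.075 ± 0.18, none of them called (the genes beside Col3a1 and Bgn were singled out after their values were seen). Their list median was -0.06, -0.38, -0.82 and -0.48 in mice 1 to 4, and their summed log2 intensity was 15.0 to 15.79 in gastric nodes and 15.87 to 16.20 in pancreatico-duodenal nodes. The collagen gene Col3a1 was at -0.84 ± 0.34 and Bgn, which encodes the proteoglycan biglycan, at -0.72 ± 0.14 (SD, n = 4). With median centring Bgn was still called (-0.30) and Col3a1 was not (-0.22). A further probe of Col3a1 read -0.12 and was not called either. Of 9 macrophage genes 6 were lower and none was higher, led by the macrophage surface receptor gene Adgre1 (-1.36 ± 0.71; a further probe at -0.54 was not called) and the haemoglobin scavenger receptor gene Cd163 (-1.26 ± 0.30). The macrophage median was -0.36, -0.86, -1.26 and -0.80 in mice 1 to 4, with summed log2 intensities of 15.46 to 16.17 in gastric nodes and 16.33 to 16.85 in pancreatico-duodenal nodes.

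Dendritic cell genes followed, with 3 of 6 lower and none higher, among them the actin-bundling gene Fscn1 (-0.65 ± 0.30) and the growth factor receptor gene Flt3 (-0.64 ± 0.20). Their summed log2 intensity was 14.40 to 14.52 in gastric nodes and 14.52 to 14.80 in pancreatico-duodenal nodes. Blood endothelium had 3 of 6 lower and none higher, among them the receptor gene Tie1 (-0.58 ± 0.07) and Plvap, a gene of endothelial diaphragms (-0.54 ± 0.18). Its summed log2 intensity was 12.53 to 13.01 in gastric nodes and 13.12 to 13.23 in the others. Lymphatic endothelium also had 3 of 6 lower and none higher, with Reln at -0.78 ± 0.33 and the scavenger receptor gene Stab2 at -0.53 ± 0.25. Its sums were 11.35 to 12.09 in gastric nodes and 12.20 to 12.64 in the others. Pdpn, which was not called, stood both in this list and in that of fibroblastic stroma. With median centring Fscn1, Stab2 and Plvap lost the call and the sign of Plvap turned. The list medians were then -0.31 for macrophages, -0.33 for lymphatic endothelium and 0.014 for fibroblastic stroma. They were 0.013 for dendritic cells and 0.071 for blood endothelium, and all lay below the 0.32 of all features. That setting keeps the trend with brightness, and the lists differed in brightness. Lymphatic endothelium genes spanned log2 intensities of 6.24 to 11.25 and macrophage genes 7.32 to 15.58. Among the tested genes of these 5 lists, Prox1, a lymphatic endothelial transcription factor gene singled out after its values were seen, was not well above background on some arrays (3 gastric and 1 pancreatico-duodenal node channels passed). The dendritic cell genes Zbtb46 and Clec9a could not be tested. The part of these cell types in the Ltbr result was not tested.

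The promoters of Ltbr, of both genes of its ligand and of Tnf are shown because Ltbr was the gene called, and because Ltb, Tnf and Lta are neighbours on chromosome 17 with 0 protein-coding genes between them. The 250 bases before each gene's start are from RefSeq, build GRCm38.p6, 5′ to 3′ on the gene's strand. Capitals mark matches on either strand to the letters GGG, then 5 bases of any kind, then CC, a loose form of the site that NF-κB binds, and overlapping matches run together.
Ltbr (chr6:125313886-125314135, minus strand): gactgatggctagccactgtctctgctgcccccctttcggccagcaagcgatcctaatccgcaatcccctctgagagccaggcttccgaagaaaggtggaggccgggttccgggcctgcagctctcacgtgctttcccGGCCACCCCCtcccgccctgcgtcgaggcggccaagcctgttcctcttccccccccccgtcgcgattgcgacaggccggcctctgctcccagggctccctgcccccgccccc
Lta (chr17:35205352-35205601, minus strand): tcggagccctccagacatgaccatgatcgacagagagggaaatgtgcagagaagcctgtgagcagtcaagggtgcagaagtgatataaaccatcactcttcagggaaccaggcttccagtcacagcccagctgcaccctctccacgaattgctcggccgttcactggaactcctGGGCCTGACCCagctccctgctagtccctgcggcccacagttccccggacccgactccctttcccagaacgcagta
Ltb (chr17:35194257-35194506, plus strand): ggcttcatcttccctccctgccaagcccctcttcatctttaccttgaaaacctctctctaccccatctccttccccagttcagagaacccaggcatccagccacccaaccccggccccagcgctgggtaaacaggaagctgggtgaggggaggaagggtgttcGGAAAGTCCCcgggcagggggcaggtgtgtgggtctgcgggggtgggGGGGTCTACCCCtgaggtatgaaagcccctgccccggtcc
Tnf (chr17:35202008-35202257, minus strand): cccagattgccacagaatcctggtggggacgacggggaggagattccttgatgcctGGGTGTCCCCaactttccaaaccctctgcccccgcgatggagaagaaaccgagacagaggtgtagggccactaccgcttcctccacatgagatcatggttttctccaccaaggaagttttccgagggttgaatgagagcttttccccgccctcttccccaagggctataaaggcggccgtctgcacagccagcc
The Ltbr window holds 1 match, which begins 112 bases before the start, and the Tnf window 1 match, at 194 bases. The Lta window has 2 overlapping matches and the Ltb window 4, the outermost at 87 bases. Of 10 promoters listed for 9 of the genes 8 held a match, and so did 45.8% of all 32851 promoters in the table. A match describes letters in the window and is not a binding site.

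Lta was on the other side of 0 from Ltbr. Its normalised log2 intensity was 10.32, 10.26, 10.35 and 10.06 in gastric nodes, against 10.17, 9.94, 10.16 and 9.84 in pancreatico-duodenal nodes of mice 1 to 4. Levels of different mice overlapped, but within each mouse the gastric node was the higher one. The log2 ratios of 0.16, 0.32, 0.19 and 0.21 gave a mean of 0.22 ± 0.07 (SD, n = 4), a ratio of 1.17 (95% interval of the log2 ratio 0.10 to 0.34). It just missed the threshold (limma adjusted p = 0.0515), so it was not called. No gene of the 10 was called higher, against 3.09% of all features, and Ltbr and Lta were the 2 of 10 with an unadjusted p under 0.05. Of all 21319 features 6536, or 30.7%, had such a p, so 2 of 10 is no more than the share of all features. Counts at an unadjusted p in the lists of connected genes and cell types are to be read against the same 30.7%.

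**Figure D2:**
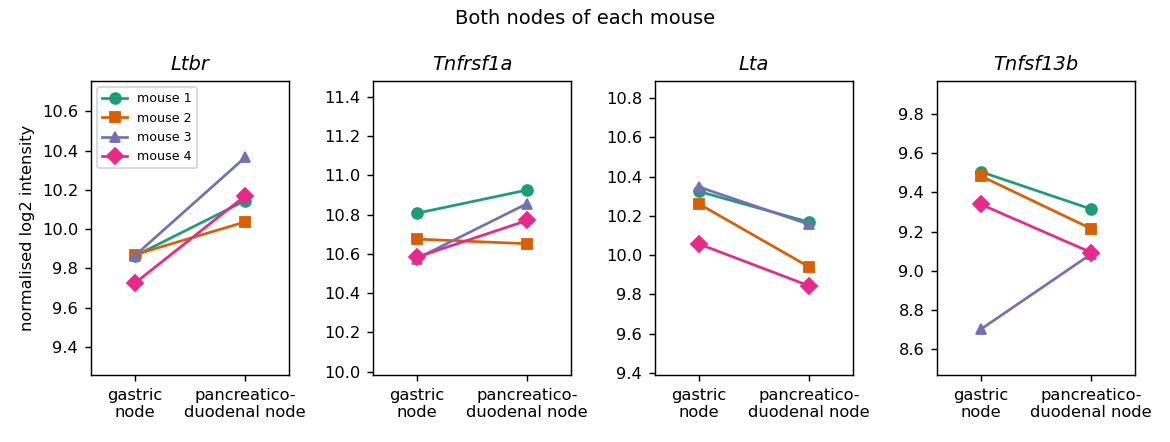
Normalised log2 intensity of Ltbr, Tnfrsf1a, Lta and Tnfsf13b in the gastric (left) and pancreatico-duodenal (right) node, with a line per mouse. All 4 lines rise to the right for Ltbr and fall to the right for Lta, and in Tnfsf13b the line of mouse 3 runs against the others.

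Whether Lta was called depended on the treatment of the data. The call was made without mouse 1 (limma adjusted p = 0.0460, log2 ratio 0.24) and in 6 other settings, and it was not made in 12. With median centring Lta was at 0.72, or 0.40 above the median of all features. That setting keeps the trend with brightness. In the loess fit Lta was 0.19 above the median of features within 0.25 log2 units of its brightness.

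The probes of Lta, Tnf and Tnfrsf1a were each printed 10 times on every array, which sets the error of a spot beside the spread between arrays. Each mouse had 1 array, so mice and arrays cannot be told apart. For Lta all 38 spots that were not flagged as outliers, 10 in each of mice 1 to 3 and 8 in mouse 4, read above 0. The lowest spot was at 0.08, in mouse 1, and the highest at 0.40, in mouse 2. The median SD over the spots of an array was 0.036, against an SD of 0.071 over the 4 mice. The spread between mice, with that of their arrays included, was thus larger than that between spots. The spots of an array share the same RNA, so they add no replicate to the test.

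**Figure D3:**
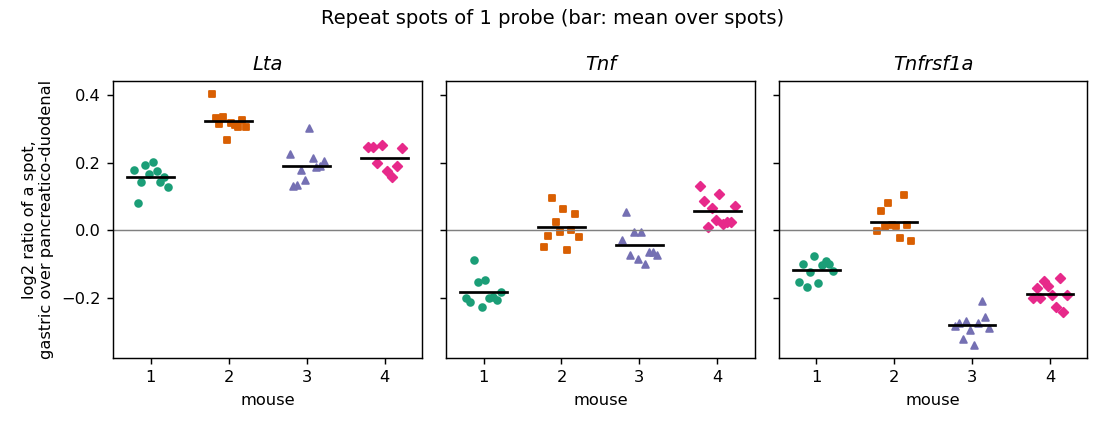
Log2 ratio (gastric over pancreatico-duodenal node, vertical axis) of every repeat spot of the Lta, Tnf and Tnfrsf1a probes in mice 1 to 4, with the mean over spots as a bar. The Lta spots lie above 0 in all 4 mice, and the Tnf and Tnfrsf1a spots change side with the mouse.

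Ltb, which encodes the subunit that anchors lymphotoxin alpha in the membrane, did not follow Lta. Its log2 intensity was 16.07, 15.85, 15.81 and 16.12 in gastric nodes and 15.94, 16.13, 15.72 and 15.86 in pancreatico-duodenal nodes. The gastric node was the higher one in mice 1, 3 and 4 and the lower one in mouse 2, and the groups overlapped. The mean log2 ratio was 0.05 ± 0.23 (SD, n = 4; 95% interval -0.18 to 0.28; limma adjusted p = 0.742). The probe was very bright, and the 41 features within 0.25 log2 units of its brightness had a median ratio of 0.05 as well. Of those features 14.6% were called higher and 0% lower.

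Tnf, which encodes the inflammatory cytokine TNF made by macrophages and T cells, showed no difference that passed. Its log2 intensity was 9.14, 8.91, 9.18 and 9.07 in gastric nodes and 9.32, 8.90, 9.22 and 9.01 in pancreatico-duodenal nodes. The log2 ratio was -0.18, 0.0086, -0.044 and 0.057 in mice 1 to 4, a mean of -0.040 ± 0.10 (SD, n = 4; 95% interval -0.18 to 0.10; limma adjusted p = 0.644). In mouse 1 all 10 spots read below 0 and in mouse 4 all 10 read above 0, and the spots of mice 2 and 3 fell on both sides.

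Tnfsf14 encodes LIGHT, a ligand of the lymphotoxin beta receptor and of the receptor HVEM. Its log2 intensity was 9.60, 9.80, 9.52 and 9.87 in gastric nodes and 9.83, 9.35, 9.59 and 9.85 in pancreatico-duodenal nodes. Mouse 2 stood at a log2 ratio of 0.46, while the other mice lay between -0.23 and 0.013, and the groups overlapped. The mean was 0.043 ± 0.29 (SD, n = 4; 95% interval -0.24 to 0.32; limma adjusted p = 0.817).

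Tnfsf11 encodes RANK ligand, through which inducer and stromal cells signal in the developing node, and it was read by 2 probes that disagreed. The brighter probe had log2 ratios of 0.25, -0.11, -0.12 and -0.28 in mice 1 to 4 (mean -0.064 ± 0.22, SD, n = 4; limma adjusted p = 0.654). The second probe had 0.39, 0.21, 0.14 and -0.26 (mean 0.12 ± 0.27; limma adjusted p = 0.489 with every probe tested). Both read highest in mouse 1 and lowest in mouse 4, but they had opposite signs in mice 2 and 3, and the mean of the probes was 0.026. No direction can be given for this gene.

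Tnfsf13b encodes BAFF, the survival factor of mature B cells. Its log2 intensity was 9.50, 9.48, 8.70 and 9.34 in gastric nodes, against 9.31, 9.21, 9.09 and 9.09 in pancreatico-duodenal nodes. The gastric node was the higher one in mice 1, 2 and 4, with log2 ratios of 0.19, 0.27 and 0.24, and the lower one in mouse 3, at -0.38. Mouse 3 stood apart through its gastric node, while its pancreatico-duodenal node read 9.09, as did that of mouse 4. The mean was 0.08 ± 0.31 (SD, n = 4; limma adjusted p = 0.672). Without mouse 3 it was 0.23, and the gene was not called there either (limma adjusted p = 0.105). Without mice 1, 2 and 4 it was 0.044, 0.017 and 0.025. The exocrine pancreas genes stood apart in the same mouse, most in its pancreatico-duodenal node. Their summed log2 intensity was 15.57 in its gastric and 20.65 in its pancreatico-duodenal node. In the same order it was 15.46 and 16.01 in mouse 1, 13.89 and 13.64 in mouse 2, and 13.27 and 12.47 in mouse 4. The part of the exocrine pancreas genes in the Tnfsf13b value was not tested.

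Among the receptors, Tnfrsf1a and Tnfrsf11a did not pass. Tnfrsf1a, which encodes TNFR1 and lies near Ltbr on chromosome 6 with 1 protein-coding gene between them, had log2 intensities of 10.81, 10.68, 10.58 and 10.58 in gastric nodes and 10.93, 10.65, 10.86 and 10.77 in pancreatico-duodenal nodes. Its log2 ratios were -0.12, 0.024, -0.28 and -0.19, with the gastric node lower in 3 of 4 mice (mean -0.14 ± 0.13, SD, n = 4; 95% interval -0.29 to 0.012; limma adjusted p = 0.187). All 10 spots read below 0 in each of mice 1, 3 and 4, whereas in mouse 2 7 spots read above and 3 below. The SD over mice was 0.13 and the median SD over spots 0.034.

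Tnfrsf11a encodes RANK, the receptor of RANK ligand, and had 2 probes. The brighter one read 0.12, 0.042, -0.14 and -0.091 in mice 1 to 4 (mean -0.018 ± 0.12, SD, n = 4; limma adjusted p = 0.855). The dimmer one read -0.051, -0.23, -0.20 and -0.16, below 0 in 4 of 4 mice, with a mean of -0.16 ± 0.08, and it did not pass either (limma adjusted p = 0.101 with every probe tested). The probes had opposite signs in mice 1 and 2, so the direction depends on the probe.

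Il7, the stromal cytokine that keeps naive T cells alive, had 1 probe that could be tested. Its log2 intensity was 7.18, 7.08, 6.83 and 7.21 in gastric nodes and 7.06, 7.28, 7.19 and 7.23 in pancreatico-duodenal nodes. The log2 ratios were 0.12, -0.20, -0.35 and -0.020, and the groups overlapped (mean -0.11 ± 0.21, SD, n = 4; 95% interval -0.32 to 0.10; limma adjusted p = 0.414). The other probe was well above background on 1 gastric and 0 pancreatico-duodenal node channels, so it was not tested and no fold is given. Without mouse 3 the tested probe was at -0.030, over the fits that left out 1 mouse it ranged from -0.19 to -0.030, and with the scanner software's processed signals it was at -0.27, not called in any of them.

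The genes that connect these signals moved little as groups. Of 11 partner receptors and decoys tested 1 was lower and none higher (3 at an unadjusted p under 0.05; list median -0.030, against 0.03 for all features). The lower one was Tnfrsf17, which encodes BCMA, a receptor of plasma cells that binds BAFF and APRIL, at -0.38, -0.25, -0.39 and -0.29 in mice 1 to 4 (mean -0.33 ± 0.07, SD, n = 4; limma adjusted p = 0.0295). The other receptors of BAFF were not called, with Tnfrsf13c at 0.23 ± 0.24 and Tnfrsf13b at -0.011 ± 0.12 (these and the partners that follow were singled out after their values were seen). The receptor chain genes of interleukin 7 had opposite signs. Il7r was at 0.29 ± 0.42 (limma adjusted p = 0.264), and Il2rg was below 0 in 4 of 4 mice at -0.29 ± 0.13 but missed the threshold (limma adjusted p = 0.0504). Tnfrsf1b, which encodes the second TNF receptor, was at -0.24 ± 0.17 (limma adjusted p = 0.103), and Tnfrsf14, the HVEM gene, at 0.18 ± 0.25 (limma adjusted p = 0.264).

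None of 20 NF-κB signalling genes was called by limma, and 5 had an unadjusted p under 0.05. Nfkb1 and Rel, 2 genes of NF-κB proteins also listed, could not be tested. The list median was 0.016. With median centring it was 0.57, where the median of all features was 0.32. The medians of the other lists of connected genes were then 0.27 for partner receptors, 0.42 for node genes and -0.081 for other ligands. Other receptors were at 0.41 and innate lymphoid genes at 0.53. That setting keeps the trend with brightness. Other ligands spanned log2 intensities of 6.31 to 9.26 and NF-κB genes 7.73 to 14.21. In those other lists Tnfsf13, Ccl21b, Tnfsf12, Tnfsf18, Eda, Tnfrsf8, Cd40, Edar, Kit, Il22 and Il17a could not be tested. The inhibitor gene Nfkbia was at 0.037 ± 0.10, and Birc3, which encodes a ubiquitin ligase that restrains NIK, at -0.036 ± 0.25 (SD, n = 4), with median centring at 0.59. Some genes of the arm that the lymphotoxin beta receptor uses were below 0 in 4 of 4 mice without passing, where 41.1% of all features had 1 sign in all 4 mice. Relb was at -0.20 ± 0.09 (limma adjusted p = 0.0671), Nfkb2, the gene of p52, at -0.18 ± 0.07 (limma adjusted p = 0.0692) and Map3k14, the gene of NIK, at -0.16 ± 0.09 (limma adjusted p = 0.108); all 3, like those that follow, were singled out after their values were seen. Other genes of the list were above 0 in 4 of 4 mice without passing. Among them were Traf5 at 0.19 ± 0.06 (limma adjusted p = 0.0631) and Traf3, which restrains NIK, at 0.16 ± 0.07 (limma adjusted p = 0.0945). Traf2 (0.046 ± 0.07) and Chuk (0.029 ± 0.35) ran in both directions. With median centring Relb, Nfkb2 and Map3k14 were above 0, at 0.42, 0.40 and 0.39. Rela was at -0.064 ± 0.06 (limma adjusted p = 0.381).

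**Figure D4:**
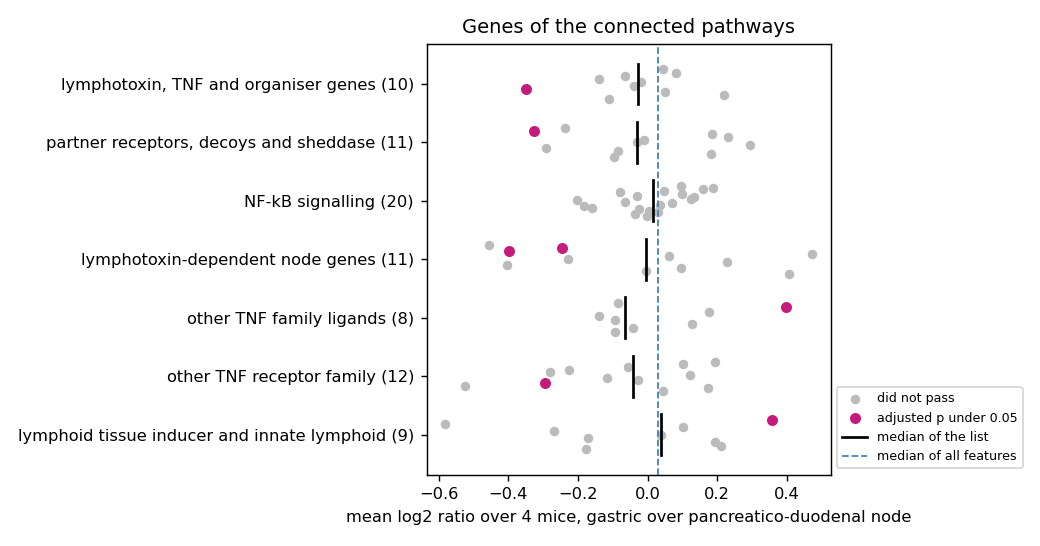
Mean log2 ratio over 4 mice (horizontal axis) of every tested gene in the set of 10 and in 6 lists of connected genes, with genes past the threshold in magenta, list medians as black bars and the median of all features as a dashed line. List medians lie between -0.064 and 0.037. Of the 10 genes 1 passed, and of the 11, 20, 11, 8, 12 and 9 tested list genes 6 passed. Of all features 7.54% passed.

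Of 11 node genes that depend on lymphotoxin signalling 2 were lower and none higher (5 at an unadjusted p under 0.05; list median -0.0037). Icam1, an adhesion molecule gene of vessels and stroma, was at -0.47, -0.42, -0.37 and -0.32 in mice 1 to 4 (mean -0.40 ± 0.07, SD, n = 4; limma adjusted p = 0.0250). Madcam1, the vessel ligand of gut-homing lymphocytes, was at -0.25 ± 0.09 (limma adjusted p = 0.0497). With median centring the signs of both turned, to 0.080 for Icam1 and 0.28 for Madcam1, where the median of all features was 0.32. In 10 further settings Madcam1 was not called, and Icam1 was not called with the scanner software's processed signals (limma adjusted p = 0.0508). Other genes of this list, singled out after their values were seen, ran both ways without passing. Vcam1, a stromal adhesion molecule gene, was at -0.45 ± 0.29 (limma adjusted p = 0.0634) and below 0 in every mouse, though at 0.12 with median centring, and Glycam1, a mucin gene of high endothelial venules, was at 0.47 ± 0.30 (limma adjusted p = 0.0631) and above 0 in every mouse. The T zone chemokine gene Ccl19 was at 0.41 ± 0.33 (limma adjusted p = 0.0996), and Cxcl13, the follicle chemokine gene, was at 1.00 in mouse 1 but between -0.10 and 0.06 in the other mice.

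The remaining TNF family genes had single calls. Of 8 other ligands 1 was higher and none lower (3 at an unadjusted p under 0.05; list median -0.064), namely Tnfsf8, which encodes the ligand of CD30, at 0.54, 0.29, 0.25 and 0.51 in mice 1 to 4 (mean 0.40 ± 0.15, SD, n = 4; limma adjusted p = 0.0363). Only 5 of the 8 were well above background in both nodes on all 4 arrays. Tnfsf4 (0.18) and Cd70 (-0.042) were so in 4 gastric and 0 pancreatico-duodenal node channels, and passed the filter through the gastric node alone. Tnfsf4 was 1 of the 3 at an unadjusted p under 0.05, and no difference is read from it. Of 12 other receptors 1 was lower and none higher (5 at an unadjusted p under 0.05; list median -0.042), namely Relt, a receptor of lymphoid tissue, at -0.30 ± 0.09 (limma adjusted p = 0.0378). With median centring Relt was at 0.076. Of 9 genes of lymphoid tissue inducer and other innate lymphoid cells 1 was higher and none lower (4 at an unadjusted p under 0.05; list median 0.037). It was Tox, a transcription factor gene that T cells use too, at 0.36 ± 0.13 (limma adjusted p = 0.0373), with a further probe at 0.16. With the scanner software's processed signals neither Relt (limma adjusted p = 0.0650) nor Tox (limma adjusted p = 0.0654) was called.

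Markers of the lymphocytes that make the ligands were close to even or slightly above 0. Of 10 T cell genes 2 were higher and none lower, Cd28 at 0.33 ± 0.15 and Cd3g at 0.32 ± 0.14 (SD, n = 4), with a list median of 0.08. Cd28 was not called in 8 and Cd3g not in 7 of 19 other settings, among them the scanner software's processed signals (limma adjusted p = 0.0596 and 0.0724) and, for Cd28, leaving out mouse 1 (limma adjusted p = 0.0525). The summed log2 intensity of the T cell list was 16.28 to 16.51 in gastric nodes and 16.18 to 16.38 in pancreatico-duodenal nodes. The list median was -0.10, 0.14, 0.12 and 0.26 in mice 1 to 4, while Lta read 0.16, 0.32, 0.19 and 0.21 in them. None of 8 B cell genes was called by limma, 1 had an unadjusted p under 0.05, and Cd79b was at 0.07 ± 0.20. The summed B cell intensity was 16.54 to 16.77 in gastric nodes and 16.39 to 16.62 in the others. None of 5 follicular dendritic cell genes was called by limma (2 at an unadjusted p under 0.05), with Mfge8 at 0.10 ± 0.17. Their list median was 0.15, and their means ran from 0.011 to 0.45. The highest were Cr2 at 0.45 ± 0.41 (limma adjusted p = 0.123) and Fcgr2b at 0.35 ± 0.19 (limma adjusted p = 0.0563). Both were above 0 in 4 of 4 mice and were singled out after their values were seen. The part of these cells in the Lta values was not tested.

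The genes whose ratios over the 4 mice were nearest to those of Ltbr, by Euclidean distance of the 4 log2 ratios, were Tmem159, Bace1 and Tinagl1. Their distances were 0.048, 0.062 and 0.071, and their mean log2 ratios -0.34, -0.33 and -0.36; a further probe of Tinagl1 read -0.16. Nearest to Lta were Smim8, Dtwd2 and Egr2, at distances of 0.054, 0.054 and 0.059 and mean log2 ratios of 0.20, 0.21 and 0.23. Within a distance of 0.2 there were 93 named genes for Ltbr and 413 for Lta, out of 13400 tested genes with a symbol.

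**Figure D5:**
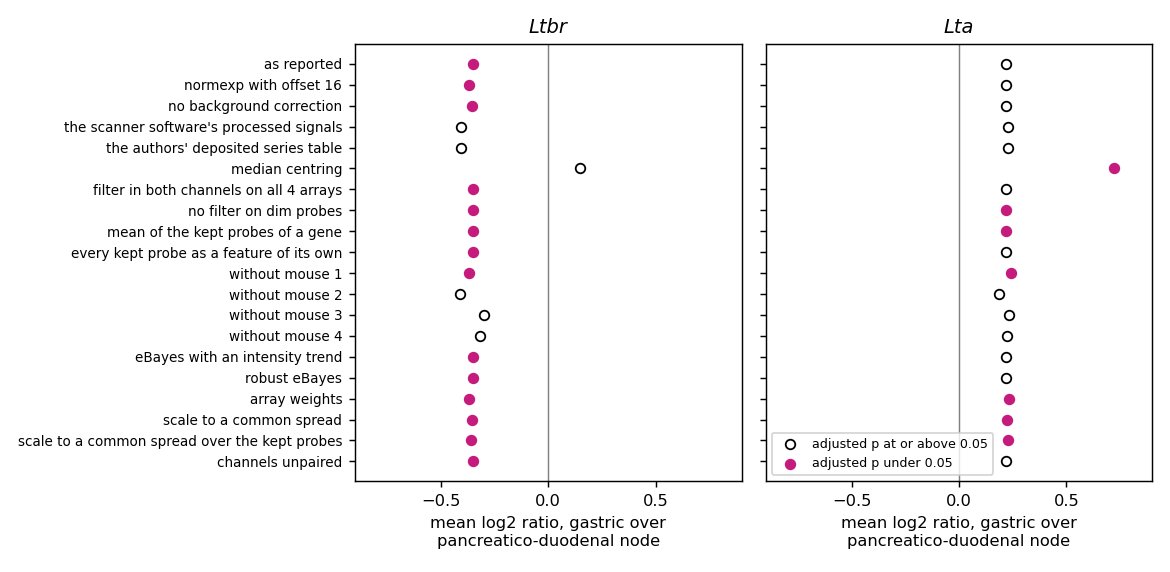
Mean log2 ratio (gastric over pancreatico-duodenal node, horizontal axis) of Ltbr and Lta as reported and under 19 other ways of treating the data, filled where the adjusted p was under 0.05. Ltbr lies between -0.41 and -0.30 in all settings but median centring, where it is at 0.15, and Lta lies between 0.19 and 0.24 except at 0.72 with median centring.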

How the data were processed

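RNA of both pancreatic lymph nodes of each of 4 mice was amplified and labelled, per the labels' protocols, with 1 array for each mouse. Per the file headers all 4 arrays shared 1 slide and 1 scan, so there were no batches to compare. The deposited scanner files, made with Agilent Feature Extraction 10.2.1.3 per the file headers, hold the mean and background intensity of 45018 spots in both channels. Per the file headers they also hold the software's processed intensity and, as log10 values, the Cy5 to Cy3 ratio made from it. In the authors' deposited value file for the series, the log2 values differed by at most 5.11e-05 from the mean log2 ratio of these processed signals, which settles scale and direction. Its column medians were -0.15, -0.06, -0.03 and -0.03.

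Intensities were corrected with normexp (offset 50) and normalised by loess within each array (limma 3.58.1, R 4.3.3, jsonlite 2.0.0 and version 1.17.8 of data.table). Control spots and spots flagged as outliers were left out, and repeat spots averaged. Probes were kept (27602 of 41174) where 1 channel was well above background on 3 or more arrays. Accessions were matched without version to RefSeq symbols of GRCm38.p6 (24844 probes matched). The brightest kept probe stood for a gene, which left 21319 features, 13400 with a symbol. Each mean log2 ratio, which pairs the nodes of a mouse, was tested against 0 with limma's lmFit and eBayes and adjusted by the Benjamini-Hochberg method over all features, at 0.05. Channel levels were scaled between arrays with Aquantile for display. The arrays correlated with each other at 0.16 to 0.64 over all features.

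The 10 genes and the lists were chosen with earlier results of these data known, and lists are described by counts and medians only. Besides the 10 genes, the text names by rule up to 4 called genes of each connected list (the 2 brightest where none was called), 1 or 2 genes of each cell type list, and the 3 genes nearest to each of the 2 genes with the smallest adjusted p. By that rule Cela3b (-1.40 ± 2.88) stood for exocrine pancreas and Fabp4 (-0.57 ± 1.59) for adipocytes, and neither was called. Without mouse 3 Cela3b was at 0.0070; without mouse 1 Fabp4 was at -1.34 and was called (limma adjusted p = 0.0218), and with median centring it was at 0.030. The steps were tested on simulated intensities.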

Additional observations from a re-analysis of the deposited data

Results flagged for a closer look

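Chance flags about 1 in 20 groups of 4 mice, and 3 of 43 sets of values were flagged because 1 mouse lay far from the other 3. For Tnfsf13b, the BAFF gene, mouse 3 was at a log2 ratio of -0.38, against 0.19 to 0.27 in the other mice, a gap of 0.879 of the whole range. For Cd163, a macrophage gene, mouse 1 was at -0.82, against -1.46 to -1.37 in the others, a gap of 0.852 of the range. For Smim8, a gene near Lta in pattern, mouse 2 was at 0.28, against 0.17 to 0.18, a gap of 0.893 of the range.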

How the results depend on the processing

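Each result was recomputed in 18 planned ways and 1 added after seeing the data (scaling the arrays over the kept probes). Leaving out 1 mouse gave 0 to 844 higher and 0 to 1323 lower features, 0 to 1 genes of the set higher and 0 to 1 lower, and 0 to 3 higher and 0 to 8 lower genes over the 6 connected lists (2 and 4 as reported). Over those fits the log2 ratio was -0.41 to -0.30 for Ltbr, 0.19 to 0.24 for Lta, -0.022 to 0.16 for Ltb, -0.072 to 0.0071 for Tnf, -0.094 to 0.13 for Tnfsf14, -0.17 to 0.0061 for Tnfsf11, 0.017 to 0.23 for Tnfsf13b, -0.20 to -0.094 for Tnfrsf1a, -0.062 to 0.022 for Tnfrsf11a and -0.19 to -0.030 for Il7. Without mouse 2 no feature passed in limma (4343 at an unadjusted p under 0.05).

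With the scanner software's signals and with the series table, 569 and 572 features were lower, Ltbr was not called (both -0.40), Ltb turned to -0.018 in both, 0 genes of the set and 2 of the lists were lower. Median centring gave 12821 higher and 2065 lower features, 7 higher and 0 lower genes of the set and 51 higher genes of the lists. There Lta (0.72), Ltb (0.85), Tnfsf14 (0.52) and Tnfsf13b (0.52) were called higher. Tnf (0.40), Tnfrsf1a (0.39) and Tnfrsf11a (0.37) turned sign and were called, while Ltbr (0.15) and Tnfsf11 (0.15) turned without a call. So did Icam1 (0.080), Relt (0.076), Plvap (0.054), Tmem159 (0.13) and Bace1 (0.10), and Birc3 (0.59) and Madcam1 (0.28) turned and were called. Median centring keeps the trend with brightness that loess removes, and the median of all features was 0.32 there.

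Lta passed, as the 1 gene of the set called higher, with no filter and with probes averaged (both 0.22), with array weights (0.23) and with arrays scaled over all spots (0.22) or over the kept probes (0.23). Averaging probes moved Tnfsf11 to 0.026 and the lower genes of the lists to 7, as did scaling over the kept probes. Array weights moved Tnf to 0.0084, the features to 2120 higher and 2211 lower and the lists to 8 and 14. Scaling gave 1071 or 1169 higher features. With channels unpaired (no replicate block) 335 features were higher and 568 lower, 2 list genes were lower and Ltbr kept its call. The causes of the changes between settings were not tested. Depth of signal limited Il7, whose second probe was near background.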
